A study of Mus musculus with 12 samples.

Results

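The 10 immediate early genes Fos, Fosb, Jun, Junb, Jund, Egr1, Ier2, Ier3, Zfp36 and Nr4a1, out of the 31053 genes of the matrices, were followed in single cells of mouse adipose tissue. They were taken as a named list because such transcripts are known to be induced while a tissue is digested, and they were read in all 12 libraries by depot, group and marker-defined cell class. All 10 were present in the matrices and were tested in every class compared.

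Immediate early genes are switched on soon after a stimulus, with no need for new protein, by kinase cascades that act on factors already present in the cell. Growth factors, cytokines and mechanical or chemical stress all induce them, and warm enzymatic digestion is a well-known trigger. The Fos and Jun proteins pair into the AP-1 transcription factor, Egr1 is a zinc finger transcription factor, and Nr4a1 is an orphan nuclear receptor. Zfp36 (tristetraprolin) binds AU-rich mRNAs, such as those of cytokines, and brings about their decay. Ier2 and Ier3 are named for their immediate early response, and Ier3 is also a known target of NF-κB.

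The libraries held the stromal vascular fraction (SVF) of epididymal (eWAT) and inguinal (iWAT) white adipose tissue of male mice aged 12 weeks, with 3 groups of 2 biological replicates in each depot. WT-Veh were C57BL/6J mice given vehicle. Both ob/ob groups were Lepob/Lepob mice, which lack functional leptin and become obese, given vehicle (ob/ob-Veh) or 30 mg/kg rosiglitazone, a PPARγ agonist (Rosi, ob/ob-Rosi). All groups were gavaged each morning and evening for 3 days, and 300 mg of tissue was digested with collagenase II at 2 mg/mL for 40 min at 37 °C. No undigested tissue was analysed here, so transcript made in the animal and transcript made during digestion cannot be told apart. An exact permutation test of 2 against 2 libraries cannot go below p = 0.33, so p-values come from models fitted across all genes.

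After filtering, 57613 eWAT and 68482 iWAT cells remained, with 19593940 to 66315901 unique molecular identifiers (UMIs, each standing for 1 captured transcript) per library and a median of 1132 to 4961 per cell. Clusters were built without the members and without the 4 response lists given further on, and were named by markers, hence the ending "-like". The iWAT WT-Veh 1 library stood apart, since 8276 of its 17063 cells lay in unnamed clusters and 396 were adipocyte progenitor (APC)-like. Groups are named as labelled. Per 100 Adipoq UMIs, Lep gave 28.0 and 42.5 UMIs in eWAT libraries labelled WT-Veh, 3.95 and 16.2 in ob/ob-Veh and 240 and 390.1 in ob/ob-Rosi, and in iWAT 20.1 and 31.6, 36.4 and 15.1, and 164 and 141, on 4 to 277 Lep UMIs over the 12 libraries. The Lepob allele is a point mutation, so this count does not check the genotype.

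Promoter stretches are shown for Fos and Zfp36, the members whose windows held motifs through which such genes are known to be induced. The sequences are from RefSeq on GRCm38.p6, and the set of promoter windows used listed 8 of the 10 members, without Egr1 and Ier2. The first lies just before the annotated start of Fos (chr12:85473890-85477273), at chr12:85473820-85473889 on the plus strand. Capitals mark TGACGT, part of the cAMP response element, and the TATAAA box.
Fos: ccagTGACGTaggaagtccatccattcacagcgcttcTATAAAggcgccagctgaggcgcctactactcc
The second lies before the RefSeq start of Zfp36, at chr7:28379269-28379298 on the minus strand, inside the annotated gene (chr7:28376784-28380253), where an exon of a longer transcript covers it. Capitals mark a CArG box, the element that serum response factor binds.
Zfp36: ccccaggccgccCCATAAAAGGagaaagct
In 32851 promoter windows of 300 bases, TGACGT was found in 7.51% and the CArG box in 1.63%, on either strand. TATAAA, sought only on the strand of the gene, was found in 8.32%. Of the 8 members listed, 1 held TGACGT, 2 held TATAAA (Fos and Junb) and 1 held the CArG box. The full element TGACGTCA (1.79% of windows, and overlapping TGACGT) and the AP-1 motif TGANTCA (7.81%) were found in none of the 8. A match describes the letters of a window only.

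In eWAT the members together held a larger share of all UMIs in the ob/ob-Veh libraries than in any other. The shares were 0.663% and 0.837% in WT-Veh, 1.58% and 1.35% in ob/ob-Veh, and 0.664% and 0.575% in ob/ob-Rosi. The WT-Veh and ob/ob-Rosi ranges met, and both ob/ob-Veh libraries lay above all 4 others. In iWAT the shares were 0.728% and 1.28% in WT-Veh, 1.70% and 1.63% in ob/ob-Veh, and 1.06% and 1.12% in ob/ob-Rosi, again highest in ob/ob-Veh, with the WT-Veh libraries far apart. Since the libraries differed in cell make-up, the shares were also averaged over the tested classes with equal weight. These means were 0.636% and 0.671% in WT-Veh, 1.23% and 1.01% in ob/ob-Veh, and 0.595% and 0.583% in ob/ob-Rosi in eWAT. In iWAT they were 0.822% and 1.01% in WT-Veh, 1.22% and 1.16% in ob/ob-Veh, and 0.958% and 0.976% in ob/ob-Rosi. The means of both depots kept their highest values in ob/ob-Veh. Not every iWAT class did so, since endothelial-like cells held 0.452% and 0.526% in WT-Veh and 0.431% and 0.444% in ob/ob-Veh.

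**Figure D1:**
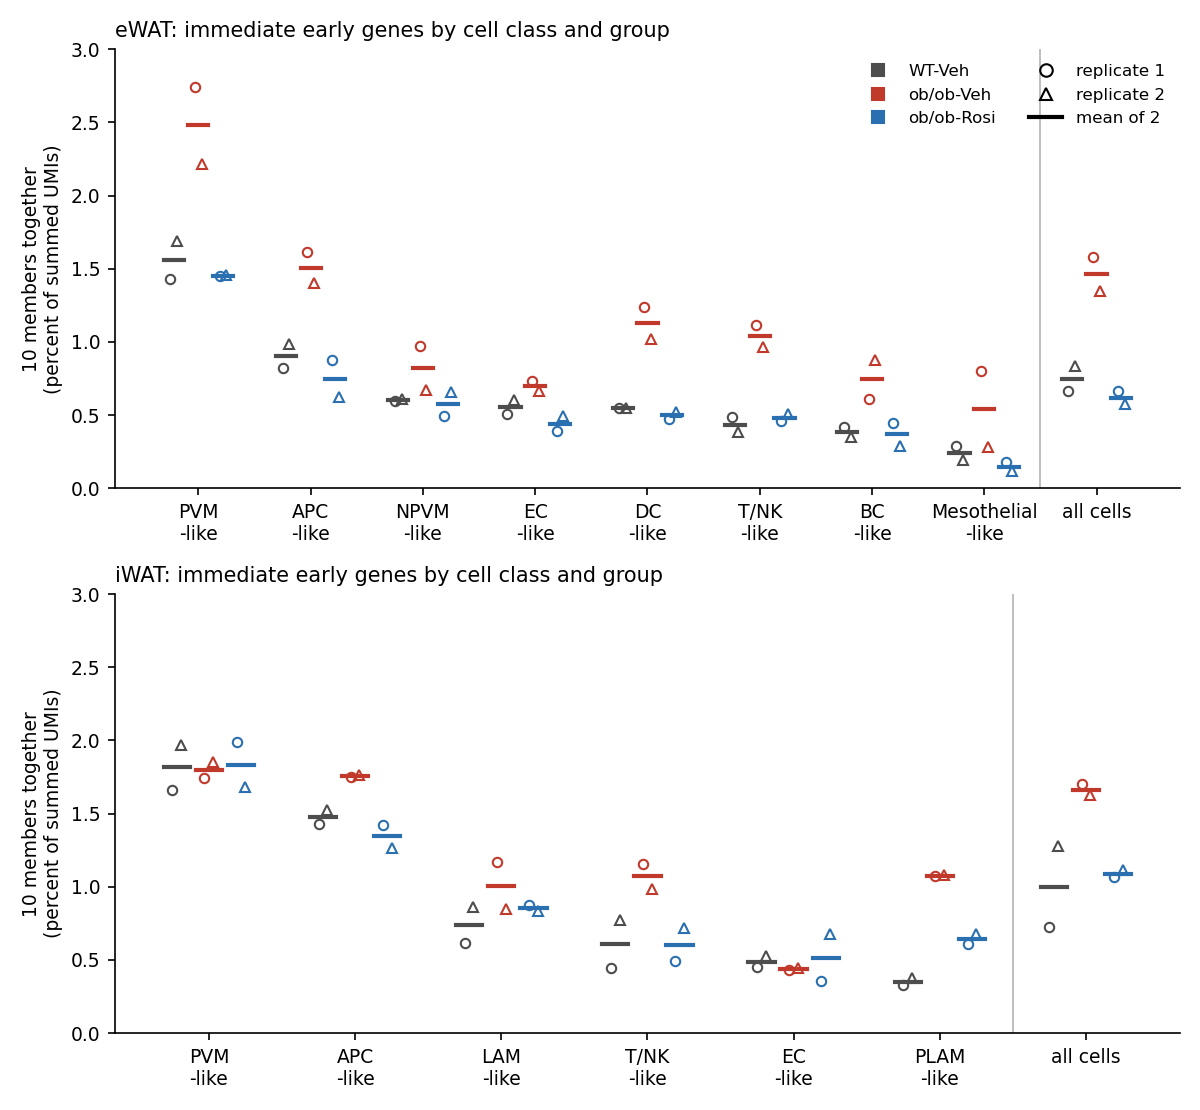
Percent of all UMIs of a cell class held by the 10 members (axis in percent), with 1 point for each library and a line at the mean of each group, by depot and group. In eWAT the ob/ob-Veh points lie above the others in PVM-like cells (2.74% and 2.22%), while in iWAT PVM-like cells all groups lie between 1.66% and 1.99%.

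Perivascular macrophage (PVM)-like cells, a resident macrophage type, held the highest share of the tested classes in 11 of 12 libraries, the exception being iWAT ob/ob-Veh 1, where APC-like cells held 1.75% and PVM-like cells 1.74%. In eWAT PVM-like cells the shares were 1.43% and 1.69% in WT-Veh, 2.74% and 2.22% in ob/ob-Veh, and 1.45% and 1.46% in ob/ob-Rosi. APC-like cells, the stromal cells that give rise to adipocytes, held 0.819% and 0.984%, 1.61% and 1.40%, and 0.874% and 0.625% in those groups. Mesothelial-like cells, which line the fat pad, held 0.288% and 0.194%, 0.805% and 0.282%, and 0.177% and 0.115%. Endothelial (EC)-like, T/NK-like and dendritic (DC)-like cells lay between 0.384% and 1.24%, with overlapping ranges, so their order was not set.

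Classes were compared within libraries, with the library as a block, by edgeR's quasi-likelihood test with Benjamini-Hochberg adjustment over all genes, which gave every adjusted p that follows. In eWAT, 8 of 10 members were higher in PVM-like than in APC-like cells, where 32.7% of all genes were called higher. Ier3 differed most, at 3.10 ± 0.17 (log2, ± standard error (SE), adjusted p = 7.26e-13, edgeR). In eWAT PVM-like cells Ier3 was 1114 and 1312 CPM in WT-Veh, 939 and 897 CPM in ob/ob-Veh, and 1058 and 1365 CPM in ob/ob-Rosi, in counts per 1000000 UMIs of the class (CPM). In APC-like cells it was 158 and 135 CPM, 149 and 163 CPM, and 130.1 and 88.2 CPM. No library of the PVM-like cells overlapped with the APC-like cells. Junb, Zfp36 and Egr1 were higher by 1.19, 1.13 and 1.06, while Jund and Nr4a1 were not called. EC-like cells were lower than APC-like cells for 9 members in eWAT (background 31.4%), all but Ier3, and for 10 in iWAT (background 30.6%). T/NK-like cells were lower for 6 members and higher for Nr4a1 in eWAT (background 35.9% and 32.5%), and lower for 8 in iWAT (background 35.7%). In iWAT PVM-like cells Ier3, Junb and Zfp36 were called higher than in APC-like cells, by 1.71, 0.55 and 0.51 (background 29.4%). Most genes differ between such classes, so the counts of members say little beyond direction and size.

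The comparison of ob/ob-Veh with WT-Veh asked how the obese state bears on each member. In eWAT APC-like cells Zfp36 and Egr1 rose. Zfp36 was 609 and 557 CPM in WT-Veh, 2151 and 1586 CPM in ob/ob-Veh, and 615 and 271 CPM in ob/ob-Rosi. Egr1 was 1105 and 1358 CPM in WT-Veh, 3522 and 2906 CPM in ob/ob-Veh, and 1469 and 674 CPM in ob/ob-Rosi. For both genes the ob/ob-Veh libraries lay above all 4 others. Zfp36 rose by 1.64 ± 0.39 (log2, SE, adjusted p = 0.0293, edgeR) and Egr1 by 1.35 ± 0.36 (adjusted p = 0.0473, edgeR). Over the 10 members the median log2 difference in APC-like cells was 0.40, beside -0.00269 over all genes. Both calls were lost without WT-Veh 1, WT-Veh 2 or ob/ob-Veh 1, with adjusted p by edgeR of up to 0.189 for Zfp36 and 0.267 for Egr1. The largest clusters of the APC-like cells differed by group, holding 64.2% of the WT-Veh cells, 48.3% of the ob/ob-Veh cells and 46.0% of the ob/ob-Rosi cells. In bulk sums of a class, more cells with the transcript and more transcript per cell cannot be told apart.

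Of 80 pairs of member and class in eWAT, 7 were called higher and 0 lower, where 2% and 2.39% of all gene and class pairs were called. Pairs were called when the adjusted p was 0.05 or lower and the groups differed 1.1-fold or more. The other calls were Egr1 (1.68) and Zfp36 (1.56) in DC-like cells, and Zfp36 (2.15), Fosb (2.06) and Nr4a1 (1.60) in T/NK-like cells. Fosb, a partner of the Jun proteins, was 124 and 236 CPM in WT-Veh, 897 and 794 CPM in ob/ob-Veh, and 267 and 264 CPM in ob/ob-Rosi in T/NK-like cells. Nr4a1, which T cell receptor signalling is known to induce, was 302 and 183 CPM in WT-Veh, 917 and 736 CPM in ob/ob-Veh, and 202 and 243 CPM in ob/ob-Rosi. Both ob/ob-Veh libraries stood clear of the other 4 for these genes.

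The make-up of these T/NK-like cells moved with the groups as well. A cluster found at resolution 2, with Gata3 and Il2ra among its leading genes, held 192 and 136 of the 636 and 480 ob/ob-Veh T/NK-like cells, but 1 and 11 in WT-Veh and 5 and 30 in ob/ob-Rosi. Its ob/ob-Veh cells held 2058 and 1969.9 CPM of Fosb. Its few cells of the other groups held 0 and 2727 CPM in WT-Veh and 1680 and 2156 CPM in ob/ob-Rosi. Fosb was thus not highest in ob/ob-Veh within that cluster. In the T/NK-like cells outside it, a division chosen after the values were seen, Fosb was 124 and 223 CPM in WT-Veh, 493 and 415 CPM in ob/ob-Veh, and 230.1 and 207 CPM in ob/ob-Rosi. Nr4a1 was 299 and 175 CPM in WT-Veh, 543 and 362 CPM in ob/ob-Veh, and 197 and 198 CPM in ob/ob-Rosi there, and Zfp36 was 301 and 141 CPM in WT-Veh, 1013 and 678 CPM in ob/ob-Veh, and 363 and 167 CPM in ob/ob-Rosi. The ob/ob-Veh libraries were still highest for the 3 genes, by less than in the whole class, and no test was run on these cells. DC-like cells came from a pair of clusters, and the one led by Clec9a and Xcr1 held 161 and 106 of the 1173 and 772 ob/ob-Veh cells, against 326 of 975 and 163 of 415 in WT-Veh. The other, which held most of the class, was led by Lyz1 and Ear2 and carried 5 of 12 DC markers but also 4 markers of the non-perivascular macrophages (NPVM). Clusters led by the same pair of genes were NPVM-like at resolutions 0.5 and 2 in eWAT, and in iWAT such a cluster was left unnamed, so that the name DC-like is uncertain for most of these cells. Egr1 was 164 and 118 CPM in WT-Veh, 561 and 427 CPM in ob/ob-Veh, and 211 and 69.1 CPM in ob/ob-Rosi in the cluster led by Clec9a. It was 431 and 326 CPM in WT-Veh, 1388 and 864 CPM in ob/ob-Veh, and 386 and 261 CPM in ob/ob-Rosi in that led by Lyz1, so that ob/ob-Veh was highest in both. Other settings ended 4 of the 7 calls. Those were Egr1 in DC-like cells at resolutions 0.5 and 2, Zfp36 in DC-like cells at 0.5, Zfp36 in T/NK-like cells with cells assigned singly (each by its own markers, without clusters), and Nr4a1 in T/NK-like cells with cells assigned singly and without doublet-like cells.

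Of the 80 log2 differences in eWAT 69 were positive (50.5% over all gene and class pairs), the median was 0.58, and 32 had an unadjusted p under 0.05 (21.3%). The calls rested on single libraries, since every eWAT call reported for ob/ob-Veh against WT-Veh was lost without ob/ob-Veh 1. Without WT-Veh 1 only that of Zfp36 in T/NK-like cells was kept, and without WT-Veh 2 only that of Fosb there. More pairs were called without ob/ob-Veh 2 or either ob/ob-Rosi library, which share the estimate of the spread. With the replicate number as a block, 20 pairs were called higher and 0 lower, where 4.82% and 5.59% of all pairs were called.

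In 56 of 80 pairs both ob/ob-Veh libraries lay above both WT-Veh libraries and in 2 below, while 34.9% and 22% of all gene and class pairs did so. Egr1 was higher without overlap in 8 of 8 classes, and Junb, Jund, Ier2, Zfp36 and Nr4a1 in 7. Fos did so in 5 classes, Jun in 4 and Fosb in 3. Ier3 was higher in 1 and lower in 2. As a percent of the members' UMIs in whole eWAT libraries, Ier3 made up 6.13% and 5.29% in WT-Veh, 1.88% and 2.62% in ob/ob-Veh, and 5.37% and 5.53% in ob/ob-Rosi.

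PVM-like cells of eWAT had high levels of most members, yet the main edgeR fit called none in them. Egr1 was 2338 and 2798 CPM in WT-Veh, 5383 and 4624 CPM in ob/ob-Veh, and 2839 and 1879 CPM in ob/ob-Rosi. Zfp36 was 1318 and 1051 CPM in WT-Veh, 3449 and 2540.5 CPM in ob/ob-Veh, and 1380.2 and 908 CPM in ob/ob-Rosi. Junb, an AP-1 subunit, was 3427 and 3028 CPM in WT-Veh, 6098 and 5174 CPM in ob/ob-Veh, and 3221 and 2553 CPM in ob/ob-Rosi. The ob/ob-Veh libraries did not overlap with the others for these 3 genes. Different clusters held the cells compared, since 1 cluster held 93.6% of the ob/ob-Veh PVM-like cells and another held 99.5% and 97.4% of those of WT-Veh and ob/ob-Rosi.

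The comparison of ob/ob-Rosi with ob/ob-Veh asked what 3 days of Rosi changed in obese mice. In eWAT 0 of 80 pairs were called higher and 11 lower, where 2.12% and 1.76% of all pairs were called. On the log2 scale Zfp36 fell by 2.06 in APC-like, by 2.05 in DC-like, by 1.94 in T/NK-like and by 1.46 in EC-like cells. Egr1 fell by 3.18 in Mesothelial-like, by 1.86 in DC-like, by 1.56 in APC-like and by 1.21 in EC-like cells. Nr4a1 fell by 1.79 and Fosb fell by 1.58 in T/NK-like cells, and Junb fell by 1.30 in DC-like cells. The same differences in cluster make-up touch the T/NK-like and DC-like cells here. Other settings ended 8 of the 11 calls, all but Egr1 and Zfp36 in APC-like and Zfp36 in EC-like cells. The 3 calls in DC-like cells were lost with clustering at resolution 0.5, and that of Junb also at resolution 2, with thinned cells, with cells assigned singly and without shared barcodes. Egr1 in Mesothelial-like cells was lost at resolution 0.5, with cells assigned singly and without doublet-like cells, and Egr1 in EC-like cells without doublet-like cells (adjusted p = 0.185, edgeR). The 3 calls in T/NK-like cells were lost with cells assigned singly, and those of Fosb and Zfp36 also without doublet-like cells. Adjusted p by edgeR ran from 0.00540 for Zfp36 to 0.0484 for Junb, both in DC-like cells. Of the 80 differences 73 were negative (50.8% over all pairs), the median was -0.77, and 40 had an unadjusted p under 0.05 (19.7%). This comparison shares the ob/ob-Veh libraries with the one before. Of these eWAT calls, only that of Zfp36 in DC-like cells was kept without ob/ob-Veh 1. Without ob/ob-Rosi 2 only that call and Nr4a1 in T/NK-like cells were kept. More pairs were called without ob/ob-Rosi 1. The replicate block gave 0 higher and 26 lower (4.92% and 4.24% of all pairs).

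In 66 of 80 pairs both ob/ob-Rosi libraries lay below both ob/ob-Veh libraries and in 2 above (29.9% and 19.8% of all pairs). Egr1, Zfp36, Junb and Fosb were lower without overlap in 8 of 8 classes. In DC-like cells Zfp36 was 647 and 442 CPM in WT-Veh, 2047 and 1639 CPM in ob/ob-Veh, and 500.3 and 346 CPM in ob/ob-Rosi. In Mesothelial-like cells Egr1 was 278 and 118 CPM in WT-Veh, 1600.5 and 543 CPM in ob/ob-Veh, and 158 and 61.9 CPM in ob/ob-Rosi. Values of ob/ob-Veh differed widely from each other in the Mesothelial-like cells, of which the ob/ob-Rosi libraries held 99 and 51.

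With ob/ob-Rosi set against WT-Veh, edgeR called 0 of 80 pairs in eWAT (0.0404% of all pairs), with 2 at an unadjusted p under 0.05 and 0 by DESeq2. The median log2 difference over the classes was -0.46 for Zfp36 and -0.25 for Egr1. Both ob/ob-Rosi libraries lay above both WT-Veh libraries in 4 pairs and below in 18 (14.6% and 11.4% of all pairs).

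**Figure D2:**
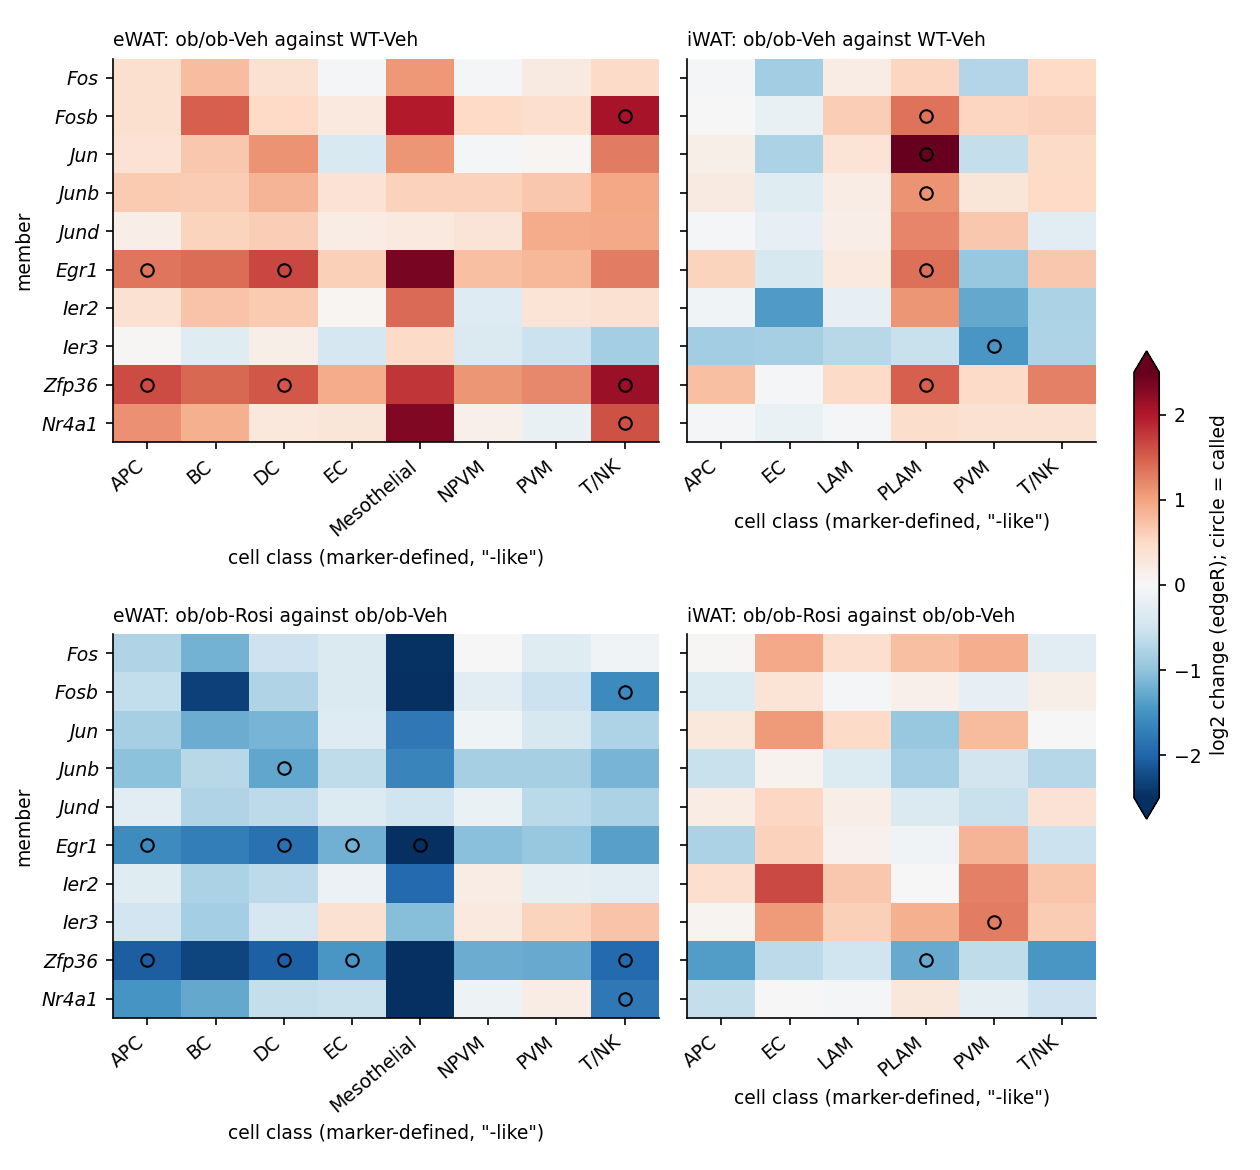
Log2 difference of each member in each tested class of eWAT and iWAT, for ob/ob-Veh against WT-Veh and ob/ob-Rosi against ob/ob-Veh, with called pairs marked. In eWAT 69 of 80 differences are positive and then 73 negative, and in iWAT 32 of 60 are positive and then 26 negative.

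APC-like cells were divided by markers into progenitor-like cells (Dpp4 and Pi16 among the markers) and preadipocyte-like cells (Pparg and Icam1 among the markers), and in eWAT the differences lay mainly in the former. Zfp36 in progenitor-like cells was 278 and 249 CPM in WT-Veh, 2561 and 2150.4 CPM in ob/ob-Veh, and 341 and 118 CPM in ob/ob-Rosi. In preadipocyte-like cells it was 650.5 and 620.2 CPM in WT-Veh, 1466 and 1227 CPM in ob/ob-Veh, and 663 and 280.2 CPM in ob/ob-Rosi. Junb was 1340.3 and 1022 CPM in WT-Veh, 3447 and 3440.0 CPM in ob/ob-Veh, and 1277 and 550.0 CPM in ob/ob-Rosi in progenitor-like cells and 1748 and 1635 CPM, 1677 and 1848 CPM, and 1601 and 1008 CPM in preadipocyte-like cells. The ob/ob-Veh libraries were thus highest for Junb only in the progenitor-like cells, while Zfp36 was highest there in both. In progenitor-like cells 6 members rose in ob/ob-Veh against WT-Veh (background 1.86%), namely Zfp36 (3.16), Egr1 (2.26), Jun (1.56), Junb (1.53), Ier2 (1.50) and Jund (0.95). With Rosi 7 fell (background 1.85%), Zfp36 by 3.33, Egr1 by 2.28, Nr4a1 by 2.11, Junb by 1.89, Jun by 1.86, Fos by 1.64 and Ier2 by 1.20. In preadipocyte-like cells edgeR called 0 members in the first comparison (background 7.57%), with 2 at an unadjusted p under 0.05, and 1 in the second (background 3.51%), Zfp36.

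The difference between the progenitor-like and preadipocyte-like changes was tested itself, with the library as a block, an analysis chosen after the data were seen. In eWAT 10 of 10 log2 differences between ob/ob-Veh and WT-Veh were higher in progenitor-like cells (background 4.7%) and 10 of 10 with Rosi were lower (background 5.37%). For ob/ob-Veh against WT-Veh the difference was largest for Zfp36, at 2.25 ± 0.12 (log2, SE, adjusted p = 1.13e-10, edgeR), and smallest for Fosb, at 0.85 (adjusted p = 0.00434, edgeR). Egr1, Nr4a1 and Ier2 lay between, at 1.70, 1.95 and 1.52. The groups filled different sub-clusters, and progenitor-like cells of ob/ob-Veh were deeper, with a median of 7560 and 5787 UMIs against 1425 and 3890.5 in WT-Veh. In ob/ob-Veh 1745 of 1867 and 1940 of 2019 preadipocyte-like cells lay in a single sub-cluster, which scored only 0.129 for the preadipocyte-like markers. The sub-clusters that held most preadipocyte-like cells of the other groups scored 1.04 and 0.958. No fit left out that sub-cluster of ob/ob-Veh. A sub-cluster named progenitor-like scored below 0 for both sets of markers. It held 174 and 157 of the 409 and 298 progenitor-like cells in WT-Veh, and 175 and 134 of 410 and 196 in ob/ob-Rosi. In ob/ob-Veh it held 16 and 60 of 2291 and 1037. Without it 10 members were called for the first difference (5.71% of all genes) and 9 for that with Rosi (4.7%). With every cell thinned to 700 UMIs, the percent of progenitor-like cells with 10 or more member UMIs was 6.85% and 9.06% in WT-Veh, 59.8% and 55.0% in ob/ob-Veh, and 12.0% and 5.10% in ob/ob-Rosi. In preadipocyte-like cells it was 18.9% and 24.5% in WT-Veh, 32.4% and 28.7% in ob/ob-Veh, and 17.9% and 16.8% in ob/ob-Rosi. Each was highest in ob/ob-Veh, with the wider gap in progenitor-like cells. Without each library in turn, 9 to 10 members were called for the first difference and 8 to 10 for that with Rosi.

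**Figure D3:**
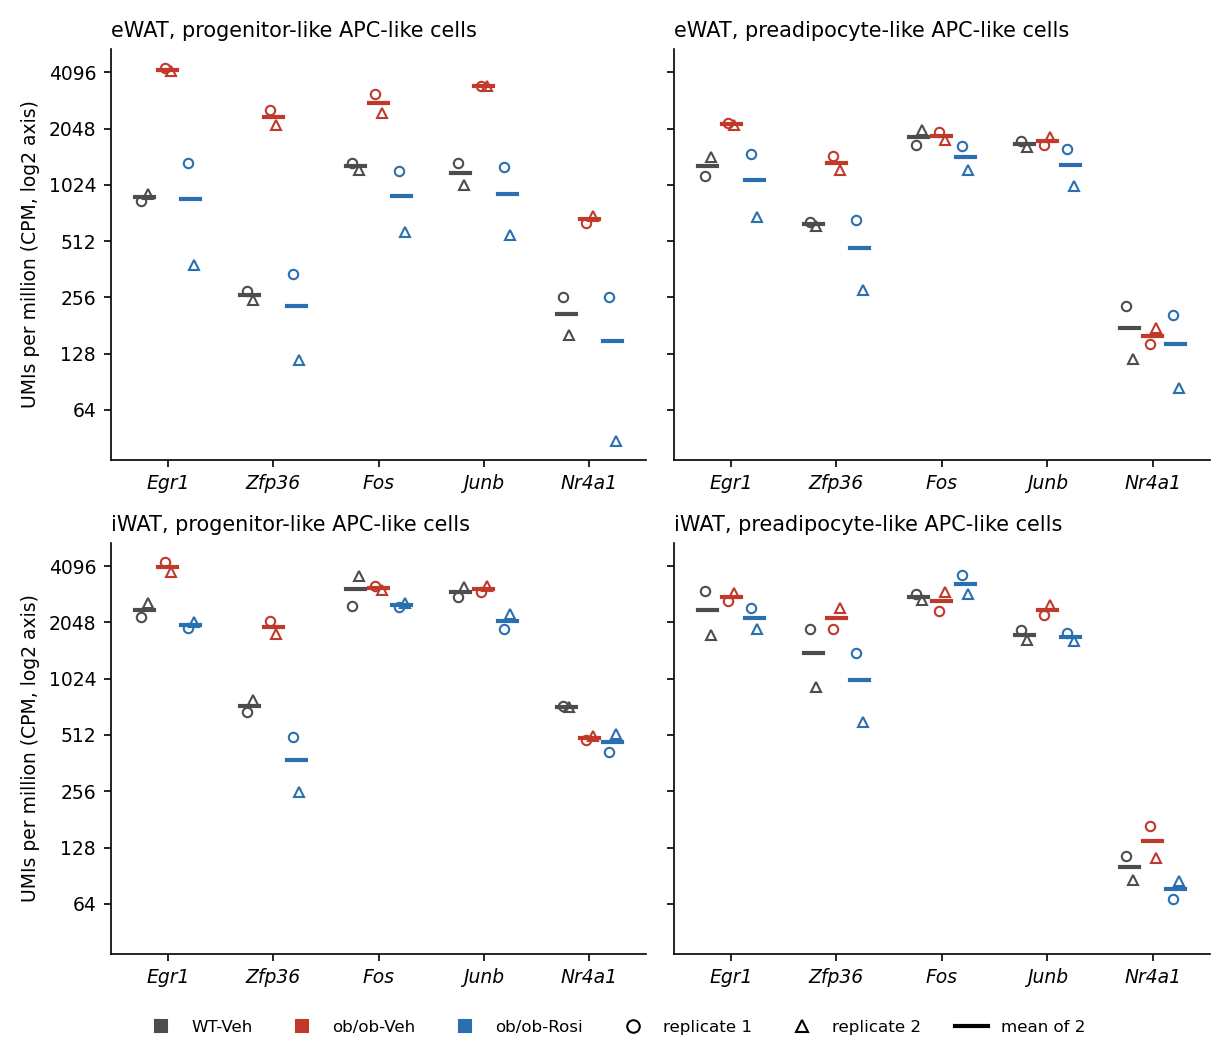
Level of Egr1, Zfp36, Fos, Junb and Nr4a1 (CPM, log2 axis) in progenitor-like and preadipocyte-like cells of eWAT and iWAT, with 1 point for each library (circles replicate 1, triangles replicate 2) and a line at the mean of each group. In eWAT progenitor-like cells Zfp36 lies at 2561 and 2150.4 in ob/ob-Veh, above every library of the other groups.

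In iWAT the same division gave few calls. For ob/ob-Veh against WT-Veh edgeR called 0 members in progenitor-like cells (background 1.25%) and 0 in preadipocyte-like cells (background 1.05%), with 3 and 0 at an unadjusted p under 0.05. With Rosi it called 1 lower, Zfp36 by 2.22, in progenitor-like cells (background 1.52%) and 0 in preadipocyte-like cells (background 2.3%, 3 at an unadjusted p under 0.05). Ier3 in iWAT progenitor-like cells was 635 and 749.9 CPM in WT-Veh, 241 and 301 CPM in ob/ob-Veh, and 487 and 360.0 CPM in ob/ob-Rosi. Its ob/ob-Veh libraries were lowest, and the difference from preadipocyte-like cells was -1.71 (adjusted p = 0.00500, edgeR, background 3.2%) for ob/ob-Veh against WT-Veh and 1.46 (adjusted p = 0.00929, edgeR, background 4.3%) with Rosi. The other differences that passed were Nr4a1, at -1.11 and 0.87, and with Rosi Ier2, at -1.16. The iWAT WT-Veh 1 library held 135 progenitor-like and 261 preadipocyte-like cells. Of the differences between these cells, 0 passed without WT-Veh 2 and 0 without ob/ob-Veh 1, against 2, and with Rosi 0 without ob/ob-Veh 1, against 3.

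Over the iWAT classes the called changes were of both signs. Of 60 pairs in ob/ob-Veh against WT-Veh, 5 were called higher and 1 lower, where 1.57% and 1.77% of all pairs were called. Those that rose were all in PLAM-like cells, the proliferating lipid-associated macrophages, namely Jun (2.64), Zfp36 (1.49), Egr1 (1.39), Fosb (1.35) and Junb (1.13). Jun, the main partner of Fos, was 98.8 and 181 CPM in WT-Veh, 958 and 1483 CPM in ob/ob-Veh, and 451 and 468 CPM in ob/ob-Rosi there. The ob/ob-Veh libraries lay above the other 4, but they held 32 and 20 PLAM-like cells. The median mitochondrial percent of these cells was 13.3 and 12.989 against 4.70 and 1.94 in WT-Veh. Ribosomal protein mRNAs took 3.45% and 4.87% of their UMIs, against 16.1% and 20.4%. Among cells under 10% mitochondrial UMIs, 5 in each ob/ob-Veh library, the members held 0.404% and 1.88% of UMIs, against 0.312% and 0.376% in WT-Veh. Over all PLAM-like cells the ob/ob-Veh shares were 1.07% and 1.08%. The part of RNA quality in these calls was not tested beyond this. Of all genes 18.9% were called in this class. The Junb call was lost in each of the 6 fits without 1 library, without the filter on low counts, with cells assigned singly and without shared barcodes, and that of Egr1 under the last 2 of these. Over the iWAT classes 1 pair was called without ob/ob-Veh 1 and 1 without ob/ob-Veh 2.

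Ier3 was the member called lower. In iWAT PVM-like cells it was 1182 and 1511 CPM in WT-Veh, 570.4 and 528 CPM in ob/ob-Veh, and 1149 and 1216 CPM in ob/ob-Rosi. Both ob/ob-Veh values lay below the other 4. The groups lay in different clusters here too, since 1 cluster held 98.8% of the ob/ob-Veh PVM-like cells and another held 74.1% and 68.9% of those of WT-Veh and ob/ob-Rosi. These cells held a median of 3146 and 4688 UMIs in WT-Veh, 1636.5 and 1616.5 in ob/ob-Veh, and 3456 and 2722 in ob/ob-Rosi. Their median mitochondrial percent was 8.18% and 3.68%, 10.97% and 9.75%, and 4.81% and 2.28% in those groups. Ribosomal protein mRNAs took 9.15% and 13.5%, 4.03% and 5.79%, and 11.6% and 15.8%. The part of RNA quality was not tested beyond keeping cells under 10% mitochondrial UMIs. Ier3 fell by 1.46 ± 0.31 (log2, SE, adjusted p = 0.0384, edgeR) and rose with Rosi by 1.27 ± 0.31 (adjusted p = 0.0434, edgeR). The rise with Rosi did not pass with scaling by library size alone or with thinned cells (adjusted p up to 0.0516, edgeR). Its differences were negative in 6 of 6 classes for ob/ob-Veh against WT-Veh and positive in 6 of 6 with Rosi. With Rosi 1 of 60 pairs was called higher and 1 lower (2.14% and 1.31% of all pairs). The latter was Zfp36 in PLAM-like cells, which fell by 1.26. That call was lost without the filter on low counts, with cells assigned singly and without shared barcodes, though its sign stayed the same. DESeq2 called 10 of 60 pairs with Rosi (7.41% of all pairs). With ob/ob-Rosi set against WT-Veh, edgeR called 0 of 60 (0.0224% of all pairs), with 8 at an unadjusted p under 0.05 and 3 by DESeq2. With Rosi, 0 pairs were called by edgeR without ob/ob-Veh 1, without ob/ob-Veh 2, without ob/ob-Rosi 1 or without ob/ob-Rosi 2, and 7 and 6 without WT-Veh 1 or 2. The call of Ier3 in ob/ob-Veh was also lost without WT-Veh 2, either ob/ob-Veh or either ob/ob-Rosi library (adjusted p up to 0.261, edgeR). For ob/ob-Rosi against WT-Veh 5 pairs were called without WT-Veh 2 and 1 without ob/ob-Rosi 1.

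By CPM, the ob/ob-Veh libraries lay above all 4 others for Zfp36 in 6 of 6 iWAT classes, although the fitted log2 difference from WT-Veh in EC-like cells was -0.04. In APC-like cells Zfp36 was 1476 and 832 CPM in WT-Veh, 2065 and 1959 CPM in ob/ob-Veh, and 1038 and 419 CPM in ob/ob-Rosi. In T/NK-like cells it was 403 and 350.4 CPM in WT-Veh, 1379 and 1107 CPM in ob/ob-Veh, and 379 and 265 CPM in ob/ob-Rosi. The largest cluster of iWAT APC-like cells was a different one in each group, holding 60.5% of the cells in WT-Veh, 76.3% in ob/ob-Veh and 54.5% in ob/ob-Rosi, and in EC-like and T/NK-like cells it was not the same in all groups. Over all members, ob/ob-Veh lay above WT-Veh without overlap in 28 of 60 pairs and below in 7, where 31.7% and 19% of all pairs did so. With Rosi 10 pairs were higher and 25 lower (22.8% and 37.2%), and for ob/ob-Rosi against WT-Veh 16 and 6 (13.8% and 14.1%). Without the iWAT WT-Veh 1 library, 7 pairs were called for ob/ob-Veh against WT-Veh and 7 with Rosi, against 6 and 2 with it.

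The groups of iWAT PVM-like cells lay in different clusters and differed in depth, mitochondrial percent and ribosomal protein share. In these cells ob/ob-Veh was not highest for every member. Egr1 was 3448 and 4022 CPM in WT-Veh, 2075 and 2310.4 CPM in ob/ob-Veh, and 3699.8 and 3314 CPM in ob/ob-Rosi. Ier2 in iWAT was 759 and 1219.6 CPM in WT-Veh, 419 and 504 CPM in ob/ob-Veh, and 789 and 1161 CPM in ob/ob-Rosi. Junb in iWAT was 3109 and 3350.0 CPM in WT-Veh, 4415 and 4546 CPM in ob/ob-Veh, and 3351 and 2444 CPM in ob/ob-Rosi. The iWAT ob/ob-Veh libraries were thus lowest for Egr1 and Ier2 and highest for Junb, with no overlap. The ob/ob-Veh effect on Egr1 in iWAT minus that in eWAT was -1.76 ± 0.40 (log2, SE, adjusted p = 0.144, edgeR), which did not pass. Of 40 pairs of member and class edgeR called 0 for this difference (0.114% of all pairs) and 0 for that of the Rosi effect (0.065%), with 6 and 10 at an unadjusted p under 0.05, 2 and 2 were called by DESeq2, and edgeR with libraries of the same group and number as a block called 2 and 1 (1.66% and 1.44% of all pairs). Both libraries of a group lay apart from both of the other in opposite directions in the depots for 3 of 40 pairs in ob/ob-Veh against WT-Veh and for 6 of 40 with Rosi, where 3.26% and 3.65% of all gene and class pairs did so.

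**Figure D4:**
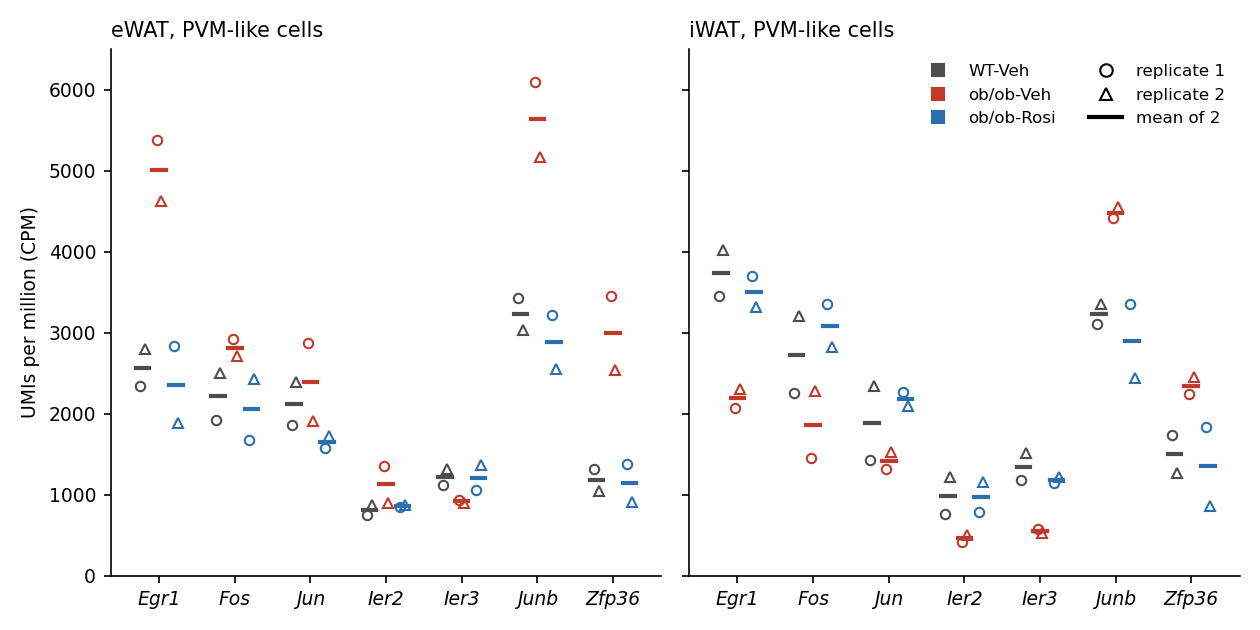
Level of 7 members in PVM-like cells of eWAT and iWAT (CPM, linear axis from 0), with 1 point for each library and a line at the mean of each group. Egr1 in ob/ob-Veh lies at 5383 and 4624 in eWAT, above the other groups, and at 2075 and 2310.4 in iWAT, below them.

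Levels in APC-like cells differed between the depots. Averaged over the 3 groups, Ier3 (1.16), Fosb (1.15), Egr1 (0.81) and Fos (0.81) were called higher in iWAT (log2, adjusted p from 0.00100 for Ier3 to 0.0196 for Egr1, edgeR), where 17.1% of all genes were called. Fos, the AP-1 subunit that gives the family its name, was 1628 and 1880.1 CPM in WT-Veh, 2693 and 2051 CPM in ob/ob-Veh, and 1585 and 1193 CPM in ob/ob-Rosi in eWAT. In iWAT it was 2766 and 3314 CPM in WT-Veh, 3092 and 3029 CPM in ob/ob-Veh, and 3197 and 2748 CPM in ob/ob-Rosi. Every iWAT library lay above every eWAT library. Within WT-Veh Ier3 was called (1.56, background 5.25%), and within ob/ob-Rosi Ier3 (1.24) and Jun (1.06, background 4.78%). Within ob/ob-Veh edgeR called 0 of 40 pairs over 4 classes (2% of all pairs), with 11 at an unadjusted p under 0.05, and DESeq2 called 4. Without each library in turn, 3 to 6 pairs were called for the mean of the groups. The call within WT-Veh was lost without either eWAT WT-Veh library or iWAT WT-Veh 2, and in ob/ob-Rosi at most 1 pair passed without any 1 eWAT library or any 1 ob/ob-Veh or ob/ob-Rosi library of iWAT. In ob/ob-Veh 2 pairs passed without iWAT WT-Veh 1 or 2. With libraries of the same group and number in both depots as a block, 4 pairs were called higher in iWAT within WT-Veh (2.05% of all pairs), 5 higher within ob/ob-Rosi (1.99%), 5 lower within ob/ob-Veh (4.34%), and 5 higher and 2 lower in the mean (6.22% and 7.01%). Depot and tissue preparation cannot be told apart. The make-up of APC-like cells differed by depot as well. In WT-Veh, eWAT held 409 and 298 progenitor-like and 3423 and 1423 preadipocyte-like cells, and iWAT 135 and 1960, and 261 and 1025. Ier3 in WT-Veh preadipocyte-like cells was 156 and 124 CPM in eWAT and 137 and 114 CPM in iWAT. In progenitor-like cells it was 175 and 188 CPM, and 635 and 750 CPM. Fos in WT-Veh was higher in iWAT in both kinds of cell. The part of this make-up was not tested.

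The higher level in eWAT ob/ob-Veh was found in many cells of some classes. With every cell thinned to 700 UMIs, the lowest depth kept, so that no cell was left out, 17.6% and 21.8% in WT-Veh, 47.5% and 37.6% in ob/ob-Veh, and 16.9% and 16.0% in ob/ob-Rosi of APC-like cells held 10 or more member UMIs. In PVM-like cells the percent was 54.3% and 64.1% in WT-Veh, 87.2% and 81.6% in ob/ob-Veh, and 49.5% and 58.1% in ob/ob-Rosi. In T/NK-like cells, with the cluster led by Gata3 and Il2ra included, it was 3.14% and 2.54% in WT-Veh, 30.0% and 22.7% in ob/ob-Veh, and 2.40% and 6.70% in ob/ob-Rosi. In all 3 classes ob/ob-Veh was highest, without overlap. In Mesothelial-like cells it was 1.24% and 0% in WT-Veh, 17.5% and 1.22% in ob/ob-Veh, and 1.01% and 0% in ob/ob-Rosi, so that only ob/ob-Veh 1 stood apart. The median EC-like cell gave the members 0.265% and 0.271% in WT-Veh, 0.255% and 0.294% in ob/ob-Veh, and 0.211% and 0.197% in ob/ob-Rosi of its UMIs, and the ob/ob-Veh and WT-Veh libraries overlapped. In iWAT PVM-like cells the groups overlapped, at 56.4% and 73.0% in WT-Veh, 59.8% and 62.8% in ob/ob-Veh, and 69.4% and 63.7% in ob/ob-Rosi.

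Zfp36 alone was detected in 24.7% and 21.2% in WT-Veh, 53.2% and 42.9% in ob/ob-Veh, and 22.8% and 14.9% in ob/ob-Rosi of thinned eWAT APC-like cells. In T/NK-like cells it was detected in 13.9% and 9.84% in WT-Veh, 42.1% and 40.6% in ob/ob-Veh, and 20.8% and 7.66% in ob/ob-Rosi. Both classes were again highest in ob/ob-Veh. Unthinned, the percents were 40.5% and 51.0% in WT-Veh, 80.3% and 76.3% in ob/ob-Veh, and 47.9% and 41.7% in ob/ob-Rosi in APC-like cells. Over all cells of a library a Fos UMI was found in a mean of 42.3%, 51.2% and 38.3% of thinned cells in eWAT and 48.5%, 59.9% and 54.5% in iWAT, for WT-Veh, then ob/ob-Veh, then ob/ob-Rosi. As a reference for free RNA, which can give UMIs to any cell, at least 1 member UMI was found in 62.7% and 65.2% in WT-Veh, 74.9% and 74.6% in ob/ob-Veh, and 57.6% and 47.1% in ob/ob-Rosi of Mesothelial-like cells, the lowest among the tested eWAT classes. Before thinning these cells held a median of 2517 and 6916 in WT-Veh, 6783 and 6278 in ob/ob-Veh, and 4175 and 8019 in ob/ob-Rosi UMIs and APC-like cells 1375 and 3853 in WT-Veh, 6648 and 4879 in ob/ob-Veh, and 2342 and 4732 in ob/ob-Rosi. The part of free RNA was not tested.

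Related genes were read from 4 lists, beside which stand the shares of all gene and class pairs called in eWAT, 2% higher and 2.39% lower in ob/ob-Veh against WT-Veh and 2.12% and 1.76% with Rosi. Of 42 other immediate early genes, 23 of 305 eWAT pairs of gene and class rose and 1 fell in ob/ob-Veh against WT-Veh, and 0 rose and 28 fell with Rosi. Dusp1, a phosphatase that ends MAP kinase signalling, was 385 and 440.4 CPM in WT-Veh, 1445 and 916 CPM in ob/ob-Veh, and 590.0 and 471 CPM in ob/ob-Rosi in APC-like cells. Socs3, a feedback inhibitor of cytokine receptors, was 196 and 234 CPM in WT-Veh, 817 and 638 CPM in ob/ob-Veh, and 155 and 133 CPM in ob/ob-Rosi. Socs3 rose by 1.72 and fell by 2.32 on the log2 scale. Zfp36l1, a relative of Zfp36, rose by 1.43 and fell by 1.80.

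Of 15 genes of the NF-κB response, 20 of 115 eWAT pairs rose and 0 fell, and 0 rose and 18 fell with Rosi. Ptgs2, the inducible prostaglandin synthase, was 34.5 and 15.1 CPM in WT-Veh, 582 and 323 CPM in ob/ob-Veh, and 42.9 and 4.53 CPM in ob/ob-Rosi in APC-like cells. Il6, a cytokine, was 39.9 and 14.4 CPM in WT-Veh, 247 and 142 CPM in ob/ob-Veh, and 37.7 and 6.80 CPM in ob/ob-Rosi. Both were highest in ob/ob-Veh, as was Zfp36, whose protein is known to bind such mRNAs. Of 14 heat shock genes, 10 of 106 pairs rose and 0 fell, and 1 rose and 7 fell with Rosi. Of 19 upstream kinases and factors, which act mainly through phosphorylation, 2 of 138 pairs rose and 0 fell, and 0 were called with Rosi. In ob/ob-Rosi against WT-Veh edgeR called 0 pairs of the 4 lists in either depot.

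In iWAT PVM-like cells the listed genes were divided, like the members. Egr2, a relative of Egr1, was 191 and 167 CPM in WT-Veh, 17.5 and 59.4 CPM in ob/ob-Veh, and 194 and 138 CPM in ob/ob-Rosi. It fell by 2.42 in ob/ob-Veh and rose by 2.30 with Rosi. Ptgs2 went the other way, at 6.44 and 6.13 CPM in WT-Veh, 68.7 and 51.2 CPM in ob/ob-Veh, and 4.76 and 5.54 CPM in ob/ob-Rosi, as did Birc3, an inhibitor of apoptosis, at 98.6 and 104 CPM in WT-Veh, 297 and 332 CPM in ob/ob-Veh, and 109.7 and 91.2 CPM in ob/ob-Rosi. Over the iWAT classes 7 of 247 pairs of other immediate early genes rose and 3 fell in ob/ob-Veh (all pairs 1.57% and 1.77%), and 6 rose and 5 fell with Rosi (all pairs 2.14% and 1.31%). For the NF-κB response 4 of 90 rose and 2 fell, then 3 and 5. For the heat shock genes 6 of 83 rose and 2 fell, then 4 and 6. For the upstream list 1 of 113 rose and 1 fell, then 1 and 0.

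The genes whose pattern was most like that of the members were found by Pearson's r with the members' mean over sums of library and class. Over 61 eWAT sums of 12 classes, out of 9011 genes, they were Dusp1 (0.90), Ppp1r15a (0.87), Atf4 (0.81), Klf6 (0.81) and Csrnp1 (0.81). Over 49 iWAT sums of 9 classes they were Dusp1 (0.84), F13a1 (0.77), Ecm1 (0.74), Cebpd (0.73) and Nfkbiz (0.72). Sums of 1 library share its depth and handling, so these values are a description. Each member correlated with the mean of the other 9 at 0.63 to 0.89 in eWAT and 0.44 to 0.78 in iWAT, except Ier3, at 0.21 and 0.11.

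**Figure D5:**
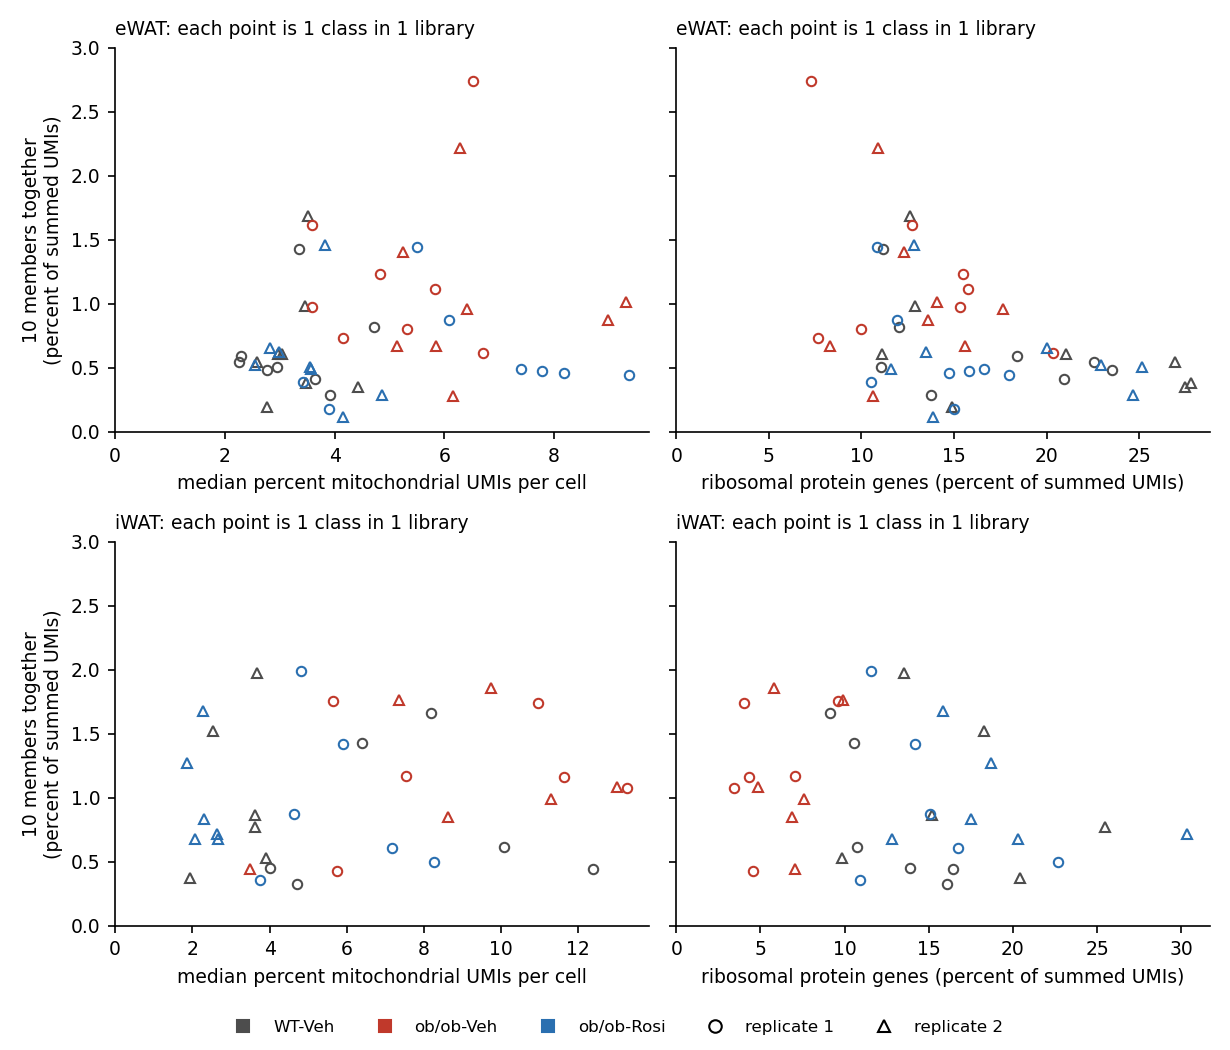
Percent of summed UMIs held by the 10 members against the median mitochondrial percent per cell (left) and the percent of UMIs in ribosomal protein genes (right), with 1 point for each tested class in each library of eWAT (top) and iWAT (bottom). The highest member percent, 2.74% in eWAT PVM-like cells of ob/ob-Veh 1, goes with the lowest ribosomal protein percent among the eWAT points, 7.29%. The next lowest, 7.67% and 8.30% in EC-like cells of ob/ob-Veh, go with member percents of 0.730% and 0.668%.

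The mitochondrial percent, taken as a measure of RNA quality, and the ribosomal protein share both moved with the groups. The study reports ribosomal gene expression reduced by obesity and raised by Rosi in progenitors and preadipocytes. The ribosomal share can thus not be read as RNA quality alone. The median mitochondrial percent of UMIs was 3.34% and 3.46% in WT-Veh, 4.68% and 5.93% in ob/ob-Veh, and 6.12% and 3.40% in ob/ob-Rosi in eWAT. In iWAT it was 5.89% and 3.32% in WT-Veh, 9.05% and 8.06% in ob/ob-Veh, and 4.48% and 2.17% in ob/ob-Rosi. Ribosomal protein mRNAs took 15.2% and 15.2% in WT-Veh, 12.1% and 11.9% in ob/ob-Veh, and 13.1% and 14.8% in ob/ob-Rosi of eWAT UMIs. In iWAT they took 15.8% and 16.8% in WT-Veh, 7.98% and 8.47% in ob/ob-Veh, and 14.0% and 18.1% in ob/ob-Rosi. Over whole libraries, ob/ob-Veh was lowest in ribosomal protein mRNAs in both depots, and highest in mitochondrial percent without overlap in iWAT but not in eWAT. By class, the eWAT mitochondrial percent was highest in ob/ob-Veh without overlap in PVM-like cells, at 3.36% and 3.51% in WT-Veh, 6.52% and 6.28% in ob/ob-Veh, and 5.50% and 3.82% in ob/ob-Rosi. It was so too in EC-like cells, at 2.95% and 3.04% in WT-Veh, 4.15% and 5.85% in ob/ob-Veh, and 3.43% and 3.57% in ob/ob-Rosi, and in Mesothelial-like cells, at 3.91% and 2.77% in WT-Veh, 5.32% and 6.16% in ob/ob-Veh, and 3.89% and 4.14% in ob/ob-Rosi. The ribosomal percent was lowest in ob/ob-Veh without overlap in DC-like cells, at 22.6% and 26.9% in WT-Veh, 15.5% and 14.1% in ob/ob-Veh, and 15.8% and 22.9% in ob/ob-Rosi, in EC-like cells, at 11.1% and 11.1% in WT-Veh, 7.67% and 8.30% in ob/ob-Veh, and 10.5% and 11.6% in ob/ob-Rosi, and in Mesothelial-like cells, at 9.95% and 10.6% against 13.7% or more in the other 4 libraries. In T/NK-like cells ob/ob-Veh lay below WT-Veh but not below ob/ob-Rosi, at 23.5% and 27.8% in WT-Veh, 15.8% and 17.6% in ob/ob-Veh, and 14.7% and 25.1% in ob/ob-Rosi. In eWAT APC-like cells neither measure set ob/ob-Veh apart, with a mitochondrial percent of 4.72% and 3.45% in WT-Veh, 3.58% and 5.24% in ob/ob-Veh, and 6.08% and 2.99% in ob/ob-Rosi and ribosomal protein mRNAs at 12.0% and 12.9% in WT-Veh, 12.7% and 12.3% in ob/ob-Veh, and 11.9% and 13.5% in ob/ob-Rosi. When only cells under 10% mitochondrial UMIs were kept, 7 and 11 member and class pairs were called in eWAT for ob/ob-Veh against WT-Veh and with Rosi, and 1 and 1 in iWAT. The iWAT PLAM-like cells were then too few to be tested, and the 5 classes left had held 1 and 1 of the 6 and 2 calls. The part of RNA quality in the results was not tested beyond this.

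Markers of cells outside the SVF classes were read in whole libraries. The 7 adipocyte markers were all above 0, and summed to 9.61 to 200.5 CPM in eWAT, highest in ob/ob-Veh, and to 27.5 to 157 CPM in iWAT. The 5 erythrocyte markers summed to 118 to 1148 CPM in eWAT and 60.3 to 185 CPM in iWAT. The 5 Schwann cell markers summed to at most 12.0 CPM, and the 5 epithelial markers to 51.8 and 61.4 CPM in eWAT ob/ob-Veh and at most 8.59 CPM elsewhere. Mesothelial-like cells numbered 593 and 492 in eWAT ob/ob-Veh, against 161 and 69 in WT-Veh and 99 and 51 in ob/ob-Rosi. The part of these cells in the epithelial sum was not tested, nor was that of any of these markers in the members' differences. Libraries shared up to 3.29% of the cell barcodes of the smaller library, with a median of 0.389% over 66 pairs of libraries. Without the cells that shared a barcode, 7 and 10 pairs were called in eWAT and 4 and 1 in iWAT.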

How the data were processed

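Stromal vascular cells were profiled by droplet single-cell RNA-seq (10x Genomics). Per the labels and the study's methods, reads were processed with Cell Ranger 3.0.2 on mm10, and the authors deposited unnormalized UMI counts per gene and barcode, one matrix per library. The iWAT matrices held no barcode over the upper limits on UMIs and mitochondrial share used here, while the eWAT matrices did. Cells with 700 to 22000 UMIs, 200 to 6000 genes and under 25% mitochondrial UMIs were kept.

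Each depot was clustered (scanpy 1.11.5, 2000 variable genes, 25 components, 20 neighbours, Leiden resolution 1) without the members and the 4 response lists. Clusters were named by markers, and those that failed the naming rule stayed unnamed. Doublets were kept, and a doublet score was used in an alternative. For each library and class the UMIs were added up, for classes with at least 20 cells in every library of the depot, which kept 8 classes in eWAT and 6 in iWAT, or 4 for both depots (alternatives with other cells needed 10). Sums were tested with edgeR 4.0.16 (quasi-likelihood, TMM, low-count filter, Benjamini-Hochberg over the genes of each class), with the 3 groups sharing 1 estimate of the spread. SEs were the log2 difference over the root of the F statistic. DESeq2 1.42.0 and other settings were alternatives. The procedure was tested on simulated data for ob/ob-Veh against WT-Veh. Of genes changed 2-fold it called 21%, 34% and 13% in eWAT APC-like, PVM-like and T/NK-like cells. In iWAT it called 7%, 6% and 1% of them in these classes. For 4-fold changes it called 81%, 86% and 84% in eWAT, and 71%, 63% and 26% in iWAT. Few calls in iWAT thus do not show that nothing changed. Deviations of libraries with the same number from their group means, over the genes of APC-like sums, correlated at 0.33, 0.29 and 0.24 in eWAT, at -0.01, 0.57 and 0.01 in iWAT, and at 0.35, 0.48 and 0.58 for the same group in both depots. The labels do not say that a number marks a shared animal or day, so the main fits have no replicate block, and counts with it stand beside the eWAT and depot comparisons. The study states that its libraries were made as one batch.

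The members, lists and markers were chosen with earlier results of these data known. The genes named are the members, up to 4 called genes with the highest CPM of each list in a class, and in each depot the 5 genes with the highest correlation with the members over sums centred within class (genes of at least 10 CPM). With 2 libraries a group, the spread between libraries sets the precision.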

Additional observations from a re-analysis of the deposited data

Results flagged for a closer look

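In 9 pairs of member and class over both comparisons, both libraries of a group lay on one side in one depot and on the opposite side in the other (3 and 6 of 40, beside 3.26% and 3.65% of all gene and class pairs). None of these differences between depots passed the main edgeR test, which had no replicate block. In PVM-like cells the effect of ob/ob-Veh against WT-Veh in iWAT minus that in eWAT was -1.76 for Egr1 and -1.62 for Ier2 on the log2 scale, and that of Rosi was 1.21 for Fos, 1.19 for Jun, 1.80 for Egr1 and 1.52 for Ier2. In EC-like cells Ier2 gave -1.42 for ob/ob-Veh against WT-Veh. In APC-like cells the Rosi effect differed by 0.46 for Jund and 0.73 for Ier2. The lowest adjusted p was 0.144 (edgeR, Benjamini-Hochberg).

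The group effects differed between progenitor-like and preadipocyte-like APC-like cells by a test of the difference itself (edgeR, library as a block, chosen after seeing the data). In eWAT the effect of ob/ob-Veh against WT-Veh in progenitor-like minus preadipocyte-like cells was, on the log2 scale, Fos 1.27, Fosb 0.85, Jun 1.44, Junb 1.68, Jund 0.88, Egr1 1.70, Ier2 1.52, Ier3 0.97, Zfp36 2.25 and Nr4a1 1.95. With Rosi the differences were Fos -1.50, Fosb -0.84, Jun -1.27, Junb -1.71, Jund -0.60, Egr1 -1.60, Ier2 -1.27, Ier3 -1.17, Zfp36 -2.03 and Nr4a1 -2.26. In iWAT the differences that passed were Ier3 -1.71 and Nr4a1 -1.11 for ob/ob-Veh against WT-Veh, and Ier2 -1.16, Ier3 1.46 and Nr4a1 0.87 with Rosi. The members thus took one sign in eWAT and both signs in iWAT. The groups filled different sub-clusters and differed in depth. With every cell thinned to 700 UMIs, 10 members were called in eWAT for ob/ob-Veh against WT-Veh and 9 with Rosi (3.48% and 3.85% of all genes). In iWAT 2 and 1 were called (1.36% and 1.99%). The part of the sub-clusters was not tested beyond leaving out those below 0 for both sets of markers.

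Cells of unnamed clusters were in no comparison. In iWAT the members held 0.613% and 0.831% in WT-Veh, 1.47% and 1.36% in ob/ob-Veh, and 0.733% and 0.689% in ob/ob-Rosi of their UMIs, with a mean of 1.42% in ob/ob-Veh, where both libraries lay above WT-Veh. In eWAT they held 0.640% and 0.688% in WT-Veh, 1.102% and 0.605% in ob/ob-Veh, and 0.622% and 0.652% in ob/ob-Rosi, so that ob/ob-Veh 1 lay highest and ob/ob-Veh 2 lowest, on 83 and 204 cells.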

How the results depend on the processing

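Counts of called pairs of member and class are given here in the order eWAT ob/ob-Veh against WT-Veh (7 as reported), eWAT Rosi (11), iWAT ob/ob-Veh against WT-Veh (6) and iWAT Rosi (2). DESeq2 called 14, 21, 10 and 10 (5.33%, 4.99%, 6.29% and 7.41% of all pairs, against 4.39%, 3.88%, 3.34% and 3.45% as reported), and without a filter on low counts edgeR called 21 and 28 in eWAT and 5 for iWAT Rosi (5.53%, 5.01% and 7.07%). Scaling by library size alone gave 12 and thinned cells gave 11 for the first, and leaving out doublet-like cells gave 7 for the second. The shares of all pairs called in these fits, and in those without 1 library, are not given here. Such counts can thus not be read as a result about the members. In iWAT, cells under 10% mitochondrial UMIs gave 1 and 1 and clustering at resolution 0.5 gave 1 and 1, but the PLAM-like class was not tested in either, and the other classes had held 1 and 1 of the calls. At resolution 2 the LAM-like class was not tested. For iWAT Rosi cells assigned singly gave 1 and leaving out shared barcodes, an alternative chosen after seeing the data, gave 1. Without 1 library, where the lone library of a group is assumed to vary like the others, the ranges were 1 to 16, 3 to 17, 1 to 7 and 0 to 7. For ob/ob-Rosi against WT-Veh, 0 pairs in eWAT became 1 without the filter, and 0 in iWAT became 3 by DESeq2, 3 without the filter and 0 to 5 without 1 library.

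Between the depots, 1 pair in WT-Veh, 0 in ob/ob-Veh, 2 in ob/ob-Rosi and 4 in the mean became 4, 4, 6 and 8 by DESeq2, 5, 5, 5 and 7 without the filter, and 0 to 1, 0 to 2, 0 to 3 and 3 to 6 without 1 library. In ob/ob-Veh 2 were called without doublet-like cells and 2 and 2 at clustering resolutions 0.5 and 2. In ob/ob-Rosi thinning gave 0, leaving out doublet-like cells 1 and single assignment 1. For the differences between depots of the ob/ob and Rosi effects (0 and 0), DESeq2 called 2 and 2 and edgeR without the filter 2 and 4. Between groups both of these settings also called more of all pairs, and the shares for the depots are not given here. The higher counts can thus not be read as a result about the members.

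Of eWAT APC-like cells, 2 members called for ob/ob-Veh against WT-Veh became 6 in progenitor-like and 0 in preadipocyte-like cells. Of all genes 4.99% and 7.57% were called there, in either direction. With Rosi 2 became 7 and 1 (4.83% and 7.89% of all genes). They became 4 over all cells of a library (20.4%) and 4 over those under 10% mitochondrial UMIs (19.8%). In iWAT 0 with Rosi became 1 in progenitor-like cells (3.29% of all genes). The differences between progenitor-like and preadipocyte-like cells stayed within 1.5 times in eWAT. In iWAT 2 became 1 without doublet-like cells and 0 to 3 without 1 library, and with Rosi 3 became 1 under 10% mitochondrial UMIs, 1 thinned, 1 without doublet-like cells, 1 by DESeq2 and 0 to 4 without 1 library. The mean percent of UMIs held by the members in eWAT ob/ob-Rosi moved from 0.620 to 0.539 over all barcodes, and in iWAT ob/ob-Veh from 1.66 to 1.75 under 10% mitochondrial UMIs and 1.50 as a mean over cells. Unthinned, the percent of cells with a Fos UMI was 68.5, 78.0, 67.9 in eWAT and 67.8, 83.1, 78.9 in iWAT, for WT-Veh, then ob/ob-Veh, then ob/ob-Rosi. The cause of these changes was not tested.

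With the replicate number as a block, 20 and 26 pairs were called in eWAT, and 4, 5, 5, 7, 2 and 1 for the depot comparisons in the order given. In iWAT the block gave 8 pairs for ob/ob-Veh against WT-Veh (5 higher, 3 lower) and 6 with Rosi (4 higher, 2 lower). The shares of all pairs for iWAT are not given here, so these counts cannot be read as a result about the members. The class comparisons within libraries stayed within 1.5 times. No member called between groups, depots or classes reversed its direction. The median over the members of the iWAT difference between progenitor-like and preadipocyte-like cells in the ob/ob effect, which was no call, went from 0.05 to -0.34 without WT-Veh 1. The 26 calls between groups were kept in 294 of 326 fits with another setting, but in 83 of 156 without 1 library, and 2 of 26 were kept whichever library was left out. Of the 7 calls between depots 3 were kept in all such fits, and the calls were kept in 58 of 84.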
